A study of Mus musculus with 12 samples.

Results

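The genes described here are 10 members of the interleukin-1 (IL-1) family and of the inflammasome, of 19938 genes measured on the arrays. They are the cytokines Il1a, Il1b and Il18, the antagonists Il1rn and Il18bp, the sensors Nlrp3 and Aim2, the adaptor Pycard and the caspases Casp1 and Casp4. The genes were chosen by name, and each was read from the probe set that carries its symbol and no other. Each of the 10 had 1 such probe set. Transcript levels were measured on 12 1-colour Affymetrix arrays in peritoneal macrophages of female mice, with 3 arrays in each of 4 groups. The first group was made of Nfkbiz-/- cells (KO) treated for 4 h with lipopolysaccharide (LPS, a component of the bacterial cell wall) at 1 µg/ml, and the second of C57Bl/6 wild-type cells (WT) treated alike. The third and the fourth were untreated KO cells and untreated WT cells. All cells had been washed out of the peritoneal cavity, plated without a sort and cultured for 2 h. The labels name the knockout by its genotype alone, without the design of the allele. Nor do they tie replicates to separate animals, so the p-values below rest on the variation of these arrays, some or all of which may be technical.

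IL-1α and IL-1β, the products of Il1a and Il1b, act on the same receptor, and the product of Il1rn occupies that receptor without signalling. IL-1β and IL-18 are made as inactive precursors. They are cut by the product of Casp1 once an inflammasome, an assembly of a sensor, the adaptor ASC (the product of Pycard) and the caspase, has formed. In macrophages LPS is widely used as the priming signal that raises the transcripts of the cytokine precursors and of the sensor NLRP3, while cleavage and release need a further signal and leave no trace in transcript levels. Nfkbiz encodes IκBζ, a nuclear protein of the IκB family that LPS induces and that acts on a subset of NF-κB target genes.

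RefSeq holds a promoter entry for all 10 genes, with 14 annotated starts (assembly GRCm38.p6). The 250 bases upstream of the start of 5 of them are shown, as the genes with the largest LPS responses in both directions (Nlrp3, Pycard), the neighbouring caspase genes, and the gene with the largest difference between KO and WT cells after LPS (Il18bp). Each is written 5′ to 3′ on the strand of its gene. Capitals mark letters that match the NF-κB consensus on either strand.
Casp4, chr9:5308599-5308848, plus strand: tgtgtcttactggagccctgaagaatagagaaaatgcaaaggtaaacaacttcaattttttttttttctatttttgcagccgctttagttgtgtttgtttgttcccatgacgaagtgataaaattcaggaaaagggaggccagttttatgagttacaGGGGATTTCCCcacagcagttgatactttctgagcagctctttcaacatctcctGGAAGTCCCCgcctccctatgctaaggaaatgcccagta
Casp1, chr9:5298267-5298516, plus strand: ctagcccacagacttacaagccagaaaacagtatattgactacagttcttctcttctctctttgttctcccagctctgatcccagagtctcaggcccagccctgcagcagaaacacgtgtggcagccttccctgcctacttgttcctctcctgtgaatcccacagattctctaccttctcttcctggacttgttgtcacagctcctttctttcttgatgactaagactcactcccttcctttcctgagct
Nlrp3, chr11:59541319-59541568, plus strand: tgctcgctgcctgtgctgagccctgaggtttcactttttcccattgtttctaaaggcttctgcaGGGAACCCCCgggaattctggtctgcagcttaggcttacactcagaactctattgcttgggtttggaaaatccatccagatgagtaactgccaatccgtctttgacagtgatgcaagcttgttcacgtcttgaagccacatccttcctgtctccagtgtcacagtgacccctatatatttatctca
Il18bp, chr7:102018233-102018482, minus strand: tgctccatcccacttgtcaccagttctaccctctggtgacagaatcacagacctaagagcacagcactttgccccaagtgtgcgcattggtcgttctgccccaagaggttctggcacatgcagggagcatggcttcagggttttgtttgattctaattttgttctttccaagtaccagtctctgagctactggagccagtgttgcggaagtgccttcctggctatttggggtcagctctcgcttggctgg
Pycard, chr7:127993868-127994117, minus strand: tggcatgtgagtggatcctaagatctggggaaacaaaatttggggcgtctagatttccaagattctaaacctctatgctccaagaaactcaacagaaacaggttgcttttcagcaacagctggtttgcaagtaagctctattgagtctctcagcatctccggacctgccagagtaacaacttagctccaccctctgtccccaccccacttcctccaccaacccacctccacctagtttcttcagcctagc
The same stretch of all 32851 promoters in the table served as the background, and 7.25% of them held a match to the NF-κB consensus. Casp4 held matches at positions -93 to -84 and -92 to -83 from the upstream of its 2 annotated starts, which overlap, and at -39 to -30. Nlrp3 held a match at -186 to -177 from the upstream of its own 2. The other 8 genes held none. The other motifs were searched on both strands unless stated, and none of the matches overlapped one of another motif. The AP-1 motif TGANTCA, present in 6.75% of all promoters, was found at -12 to -6 in Il1a and at -141 to -135 in Il1rn. The TATA box TATAAA, searched on the gene's strand alone and present in 7.59%, was found at -32 to -27 in Il1a and at -31 to -26 in Il1b. The interferon-stimulated response element, ISRE (2.98% of all promoters), and the GAS motif TTCNNNGAA (7.02%) were found in none of the 10 genes. For Aim2, 0 of the 250 bases searched lay upstream of the outermost start of its gene record, and for Il1a 36 did. For these genes, a missing match of any motif therefore says little about the sequence upstream of the gene. These matches describe letters in this window and were not tested for binding.

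Nfkbiz itself was measured at 1568, 1335 and 1634 in LPS-treated KO cells, against 3371, 3786 and 3079 in LPS-treated WT cells (RMA intensity on a linear scale, as are all levels below). In untreated KO cells it was at 266.9, 285.6 and 274.4, against 462.6, 430.7 and 406.3 in untreated WT cells. The KO arrays lay below the WT arrays in both treatments, by a log2 difference of -1.17 ± 0.10 (SE; adjusted p = 7.23e-05) with LPS and of -0.65 ± 0.10 (adjusted p = 0.0401) without. Whether its probes fall within the deletion is unknown here, so the signal left in KO cells checks the labels only in part. The sum over 10 macrophage markers was 54520 to 64060 per array, led by Lyz2, Cd14 and Csf1r, though not every marker was high. Timd4 had means of 1490 and 789 in LPS-treated and untreated KO cells, against 361 and 209 in the WT cells. Its log2 difference was 1.85 ± 0.57 with LPS (adjusted p = 0.0721) and 1.56 ± 0.57 without (adjusted p = 0.47), not called. That of Gata6 with LPS was -0.79 ± 0.23 (adjusted p = 0.061), also not called. Of the 10 markers, Mertk was called higher (log2 difference 1.29 ± 0.11, adjusted p = 0.000103) and Adgre1 lower (-0.35 ± 0.08, adjusted p = 0.0245) in LPS-treated KO than LPS-treated WT cells. The call of Adgre1 was lost without LPS-treated KO replicate 1 or LPS-treated WT replicates 1 or 3 (-0.39 to -0.30 when each array was left out in turn).

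Markers of other cells that may come along in such a wash moved with some groups. The summed level of 11 neutrophil markers was 3237 to 4034 in LPS-treated KO cells and 4070 to 4984 in LPS-treated WT cells, and 5022 to 5997 in untreated KO cells and 6467 to 7919 in untreated WT cells. Most of it was Mmp8. S100a8 followed with group means of 281 to 373, then Camp with 109 to 135 and Mpo with 110 to 114. The remaining markers had group means of at most 92.3, among them Ly6g, S100a9 and Ngp with at most 85.7, 87.4 and 32.4. Of 8 dendritic cell markers, whose sum was led by Ccr7, the range was 1218 to 3344 in LPS-treated KO cells and 3714 to 5322 in LPS-treated WT cells, and 1710 to 2762 and 3632 to 4881 in the untreated KO and WT cells. Ccr7 had log2 differences between KO and WT cells of -1.42 with LPS and -1.56 without, and Cd209a of -0.90 and -1.48. The others ran from -0.09 (Xcr1) to 0.05 (Zbtb46) with LPS and from -0.46 (Flt3) to 0.56 (Clec9a) without. None of the 8 was called between KO and WT cells. The sum of 10 mast cell markers was 2335 to 8573 in LPS-treated KO cells and 7906 to 9214 in LPS-treated WT cells, and 1548 to 3479 and 1534 to 1585 in the untreated KO and WT cells, with Hdc as the main part after LPS. Hdc had a mean of 4170 in LPS-treated KO cells and 7550 in LPS-treated WT cells, whereas the other 9 markers had positive log2 differences between these groups, among them Mcpt4 (1.43) and Cpa3 (0.78). The sum of 10 mesothelial and stromal markers was 1198 to 1366 in LPS-treated KO cells and 1386 to 1450 in LPS-treated WT cells, and 1093 to 1126 and 1222 to 1379 in the untreated KO and WT cells. Of all these other-cell lists, with B cell, T and NK cell and eosinophil markers included, 2 genes were called between KO and WT cells, both after LPS: the stromal Dcn (log2 difference -0.93 ± 0.20, adjusted p = 0.0165) and the T cell gene Cd3e (0.29, adjusted p = 0.0337). When each array was left out in turn, the call of Dcn was lost without replicate 1 of the LPS-treated KO or WT cells (-1.14 to -0.78 over the 12 fits), and that of Cd3e in 5 of the 12 fits, without LPS-treated KO replicates 2 or 3, LPS-treated WT replicates 1 or 3, or untreated WT replicate 3 (0.23 to 0.34). No marker read 0, since the lowest deposited intensity was 6.96. In RNA taken from all cells of a well, fewer cells of a type and less RNA per cell cannot be told apart. The part of these cells in the results below was not tested.

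LPS changed all 10 genes in KO cells and 5 of the 10 in WT cells. Differences were tested with limma on log2 intensity, and called where the p-value adjusted over all genes was under 0.05. In KO cells 9 genes rose and Pycard fell. Of all genes, 45.7% were called in this comparison, 21.9% as higher and 23.8% as lower. The arrays of all 10 members were separate between treatments, 9 higher and 1 lower, as were 28.3% of all genes higher and 25.5% lower. In WT cells Nlrp3, Il1a, Il1rn and Casp4 rose and Pycard fell, where 28.1% of all genes were called, 9.53% as higher and 18.5% as lower. Here 5 members were separate and higher, 1 was separate and lower and 4 overlapped, beside 23.2% of all genes separate and higher and 24.3% separate and lower. The median log2 response of the 10 genes was 1.44 in KO cells and 0.76 in WT cells, against 0.07 and 0.04 over all genes. The difference of the responses was called by limma for 0 of the 10, where 0.747% of all genes were called at the same adjusted threshold. An unadjusted p under 0.05 was reached by 4 members, but the share of all genes at that looser threshold was not counted.

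Between the genotypes, Il18bp, Aim2 and Casp1 were higher in KO than in WT cells after LPS and no member was called lower. Of all genes 8.14% were called, 3.28% as higher and 4.87% as lower. The KO arrays were all higher than the WT arrays for 5 members (10.3% of all genes) and all lower for 1 (14.2% of all genes), and 4 overlapped. Without LPS, limma called 0 members between KO and WT cells, where 0.0752% of all genes were called at the same adjusted threshold. Here too 4 members had an unadjusted p under 0.05, and the share of all genes at that threshold was not counted. The untreated KO arrays were all higher for 3 members (4.88% of all genes) and all lower for 3 (11.5% of all genes). The median log2 difference of the 10 genes was 0.58 with LPS and -0.06 without, against -0.01 and -0.03 over all genes. Each group of arrays enters several of these comparisons, so they are not independent of each other.

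**Figure D1:**
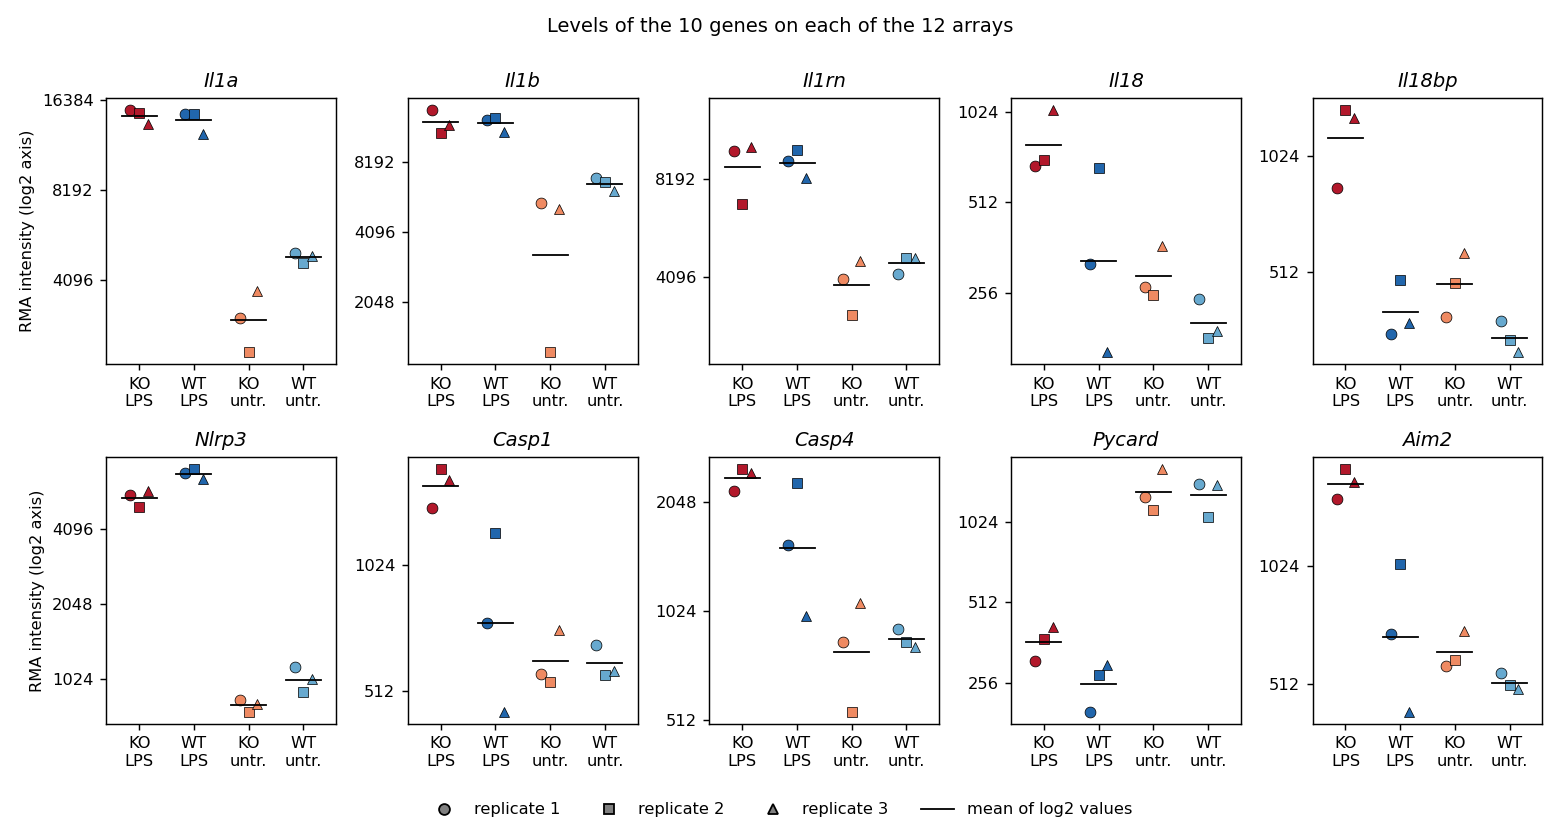
RMA intensity (log2 axis, a different range in each panel) of the 10 genes on each of the 12 arrays, by group: KO with LPS, WT with LPS, KO untreated and WT untreated, with a symbol per replicate and a line at the mean of the log2 values. Il18bp, Aim2, Casp1, Il18 and Pycard were higher on all 3 LPS-treated KO arrays than on any LPS-treated WT array, while Il1a, Il1b and Il1rn overlapped between them.

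Among the cytokines, Il1a, whose product is also released as an alarm signal from damaged cells, overlapped between the genotypes after LPS and was lower on every KO array than on every WT array before it. It stood at 15240, 14900 and 13610 in LPS-treated KO cells, against 14760, 14790 and 12650 in LPS-treated WT cells, and the groups overlapped. Untreated KO cells had levels of 3058, 2348 and 3766, against 5031, 4658 and 4926 in untreated WT cells, and all KO arrays lay below all WT arrays. The log2 difference between KO and WT cells was 0.05 ± 0.14 after LPS (adjusted p = 0.891, 95% interval -0.25 to 0.36) and -0.70 ± 0.14 without LPS (adjusted p = 0.134). Without the untreated KO replicate 3, the highest of its group, the untreated difference was -0.86 with an adjusted p of 0.0359. Its response to LPS was a log2 difference of 2.28 ± 0.14 in KO cells, 4.85-fold, and of 1.53 ± 0.14 in WT cells, 2.88-fold (adjusted p = 4.77e-07 and 1.09e-05). The response was 0.75 ± 0.20 larger in KO cells on the log2 scale, which did not pass the threshold (adjusted p = 0.123), but did without the untreated KO replicate 3 (0.92, adjusted p = 0.0399).

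Il1b had the same order of groups as Il1a, but 1 array set most of its untreated difference. Its level was 13800, 11000 and 11880 in LPS-treated KO cells, against 12460, 12690 and 11030 in LPS-treated WT cells, with overlapping groups. Among untreated KO cells it was 5483, 1239 and 5141, against 6977, 6736 and 6174 in untreated WT cells. Replicate 2 of the untreated KO cells was far below the other arrays. It was the lowest of its group for 8 of the 10 genes, and the share of all genes for which it was lowest was not counted. The log2 difference of untreated KO from untreated WT cells was -1.02 ± 0.42 with this array (adjusted p = 0.538) and -0.32 without it (adjusted p = 0.571). The response to LPS in KO cells was 1.90 ± 0.42 (adjusted p = 0.00353) on the log2 scale, and 1.20 without that array (adjusted p = 1.65e-05). In WT cells Il1b was higher on all LPS arrays than on all untreated arrays, with a log2 difference of 0.86 ± 0.42 (adjusted p = 0.16) while the spread was shared with that array, and an SE of 0.10 and an adjusted p of 7.29e-05 without it. Its mean level was 12200 ± 1430 in LPS-treated KO cells and 12100 ± 900 in LPS-treated WT cells, and 3950 ± 2360 in untreated KO cells and 6630 ± 412 in untreated WT cells (SD, n = 3 each).

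Il18, the cytokine that drives interferon-γ release from T and NK cells, varied widely among the LPS-treated WT arrays. It was at 678.5, 707.7 and 1041 in LPS-treated KO cells, against 319.8, 664.3 and 162.7 in LPS-treated WT cells. All KO arrays were higher, though the lowest of them was close to WT replicate 2, and WT replicate 3 was the lowest of all 12 arrays. In untreated KO cells it was at 268.3, 252.2 and 365.5, against 243.6, 181.6 and 190.7 in untreated WT cells, again without overlap. The log2 difference between KO and WT cells was 1.28 ± 0.39 after LPS (adjusted p = 0.0678), not called, and 0.52 ± 0.39 without LPS (adjusted p = 0.728). Leaving out the LPS-treated WT replicate 2 gave 1.80 after LPS, which was called (adjusted p = 0.00329). In KO cells LPS raised Il18 by 1.45 ± 0.39 on the log2 scale (adjusted p = 0.0104). The response in WT cells was 0.68 ± 0.39 (adjusted p = 0.228), and 1.18 without the LPS-treated WT replicate 3 (adjusted p = 0.0118).

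The 2 antagonists differed from each other. Il18bp, which encodes the secreted protein that binds and neutralises IL-18, showed the largest difference between KO and WT cells after LPS of the 10 genes. It was at 848.4, 1352 and 1289 in LPS-treated KO cells, against 351.7, 486.8 and 377.8 in LPS-treated WT cells. In untreated KO cells it was at 391.5, 480.0 and 571.7, against 380.7, 341.0 and 316.4 in untreated WT cells. The KO arrays were all higher in both treatments, and the LPS-treated WT arrays overlapped the untreated WT arrays. The log2 difference between KO and WT cells after LPS was 1.50 ± 0.19, 2.84-fold (adjusted p = 0.00101), and it was called in every alternative tried. Without LPS it was 0.46 ± 0.19 (adjusted p = 0.538). LPS raised Il18bp by 1.26 ± 0.19 on the log2 scale in KO cells (adjusted p = 0.000258), while the response in WT cells was 0.22 ± 0.19 (adjusted p = 0.437). The response was larger in KO cells by 1.04 ± 0.27 (adjusted p = 0.115), which passed the threshold without the LPS-treated KO replicate 1 (1.26, adjusted p = 0.034), the lowest of its group. With the replicate number as a block within each genotype, the 1.04 had an adjusted p of 0.0272. That fit was added after seeing the data. It also blocks the WT arrays, where same-numbered arrays were not steadily alike.

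Il1rn, the receptor antagonist, rose in both genotypes and overlapped between them. Its level was 9973, 6840 and 10300 in LPS-treated KO cells, against 9327, 10050 and 8241 in LPS-treated WT cells. The untreated KO cells had 4020, 3111 and 4581, against 4171, 4673 and 4659 in untreated WT cells. The LPS-treated arrays were above all untreated arrays. LPS raised it by a log2 difference of 1.21 ± 0.17 in KO cells (adjusted p = 0.000139) and of 1.03 ± 0.17 in WT cells (adjusted p = 0.000654). Between KO and WT cells after LPS the log2 difference was -0.05 ± 0.17, with a 95% interval of -0.41 to 0.32, and the responses differed by 0.18 (95% interval -0.34 to 0.70).

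**Figure D2:**
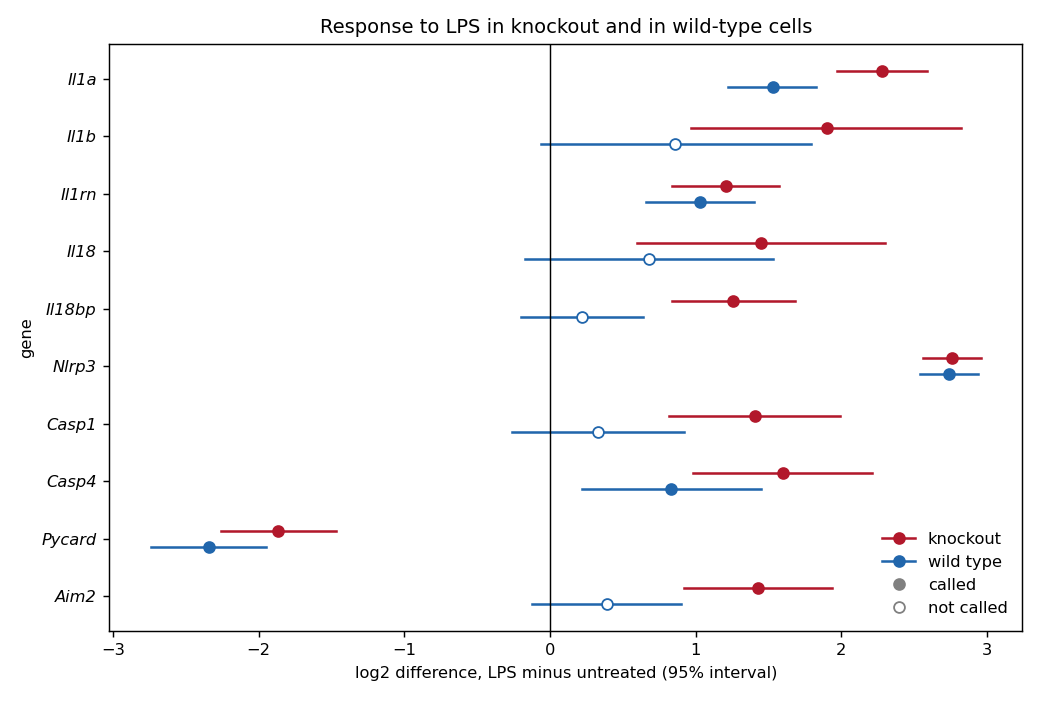
Log2 difference of LPS-treated from untreated cells for each gene, in KO cells (red, upper) and WT cells (blue, lower), with 95% intervals; filled points passed the adjusted p threshold and open points did not. Nlrp3 had the largest rise in both genotypes (2.76 in KO and 2.74 in WT cells), and Pycard was the gene that fell.

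Of the sensors, Nlrp3, which responds to disturbed membranes and ion balance, rose most in both genotypes. It was at 5568, 5012 and 5794 in LPS-treated KO cells, against 6869, 7076 and 6474 in LPS-treated WT cells. Untreated KO cells had 845.8, 756.8 and 811.6, against 1139, 905.6 and 1025 in untreated WT cells. Every KO array was below every WT array in both treatments, by small steps. The log2 response to LPS was 2.76 ± 0.09 in KO cells and 2.74 ± 0.09 in WT cells (adjusted p = 7.64e-09 and 7.19e-09), and the responses differed by 0.02 with a 95% interval of -0.27 to 0.31. The KO minus WT difference was -0.32 ± 0.09 after LPS (adjusted p = 0.0581) and -0.34 ± 0.09 without LPS (adjusted p = 0.305), neither of them called. After LPS it was called without the untreated WT replicate 1 (-0.32, adjusted p = 0.046) or replicate 2 (-0.32, adjusted p = 0.0476). It was also called after a second quantile normalization (-0.38, adjusted p = 0.0241) and with a pseudocount of 16 (-0.32, adjusted p = 0.0487). The same held with dim genes left out (adjusted p = 0.0432), with array weights (adjusted p = 0.0235) and with a replicate block (adjusted p = 0.0471).

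Aim2, which binds double-stranded DNA in the cytosol, was set apart by the KO cells. Its level was 1512, 1804 and 1678 in LPS-treated KO cells, against 685.3, 1037 and 434.8 in LPS-treated WT cells. Untreated KO cells had 569.2, 590.5 and 697.0, against 546.5, 507.4 and 495.6 in untreated WT cells. The LPS-treated KO arrays were above all others, whereas the LPS-treated WT arrays ran from the lowest value of the 12 arrays, replicate 3, to replicate 2, which was above all untreated arrays. After LPS the log2 difference between KO and WT cells was 1.30 ± 0.23, 2.46-fold (adjusted p = 0.00654). It ranged from 0.98 to 1.60 and was called when each array was left out in turn, but was not called when the 6 LPS-treated arrays were fitted alone (adjusted p = 0.0704). LPS raised Aim2 by 1.43 ± 0.23 in KO cells (adjusted p = 0.000423). In WT cells the log2 response was 0.39 ± 0.23 (adjusted p = 0.246), and 0.71 without the LPS-treated WT replicate 3 (adjusted p = 0.00647). The responses differed by 1.04 ± 0.33 (adjusted p = 0.186), and by 1.35 without the LPS-treated WT replicate 2 (adjusted p = 0.0159).

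Pycard, the adaptor that joins these sensors to Casp1, was the gene that fell. It was at 309.4, 373.1 and 415.0 in LPS-treated KO cells, against 199.8, 275.0 and 298.8 in LPS-treated WT cells. Untreated KO cells had 1273, 1136 and 1611, against 1422, 1073 and 1410 in untreated WT cells. LPS-treated and untreated arrays were far apart in both genotypes, and the untreated KO and WT arrays overlapped. LPS lowered Pycard by a log2 difference of -1.87 ± 0.18 in KO cells and of -2.34 ± 0.18 in WT cells (adjusted p = 1.03e-05 and 3.14e-06), which is 3.65-fold and 5.08-fold lower. All LPS-treated KO arrays were above all LPS-treated WT arrays, with a log2 difference of 0.52 ± 0.18 that was not called (adjusted p = 0.112), nor was the difference of the responses, 0.48 ± 0.26 (adjusted p = 0.469).

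Casp1, the caspase that cuts the precursors of IL-1β and IL-18, followed the arrays much as Aim2 did. Its level was 1410, 1741 and 1645 in LPS-treated KO cells, against 743.9, 1225 and 456.0 in LPS-treated WT cells. Untreated KO cells had 562.3, 538.7 and 717.1, against 660.1, 559.0 and 570.8 in untreated WT cells. All LPS-treated KO arrays were higher than the WT arrays, the LPS-treated WT replicate 3 was the lowest of the 12 arrays, and the untreated groups overlapped. After LPS the log2 difference between KO and WT cells was 1.09 ± 0.27, 2.13-fold (adjusted p = 0.0291). This call was lost without the LPS-treated KO replicate 2 (1.03, adjusted p = 0.0726) or replicate 3 (1.07, adjusted p = 0.0791), or without the LPS-treated WT replicate 1 (1.09, adjusted p = 0.0893) or replicate 3 (0.74, adjusted p = 0.0705). Without LPS the difference was 0.01 ± 0.27 (95% interval -0.57 to 0.60). LPS raised Casp1 by 1.41 ± 0.27 in KO cells (adjusted p = 0.00132), and the response in WT cells was 0.33 ± 0.27 (adjusted p = 0.406), or 0.68 without the LPS-treated WT replicate 3 (adjusted p = 0.0242). The responses differed by 1.08 ± 0.38 (adjusted p = 0.244), and by 1.44 without the LPS-treated WT replicate 2 (adjusted p = 0.023).

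Casp4, whose product binds LPS in the cytosol, neighbours Casp1 on chromosome 9 and rose in both genotypes. It was at 2193, 2521 and 2464 in LPS-treated KO cells, against 1556, 2316 and 991 in LPS-treated WT cells. Untreated KO cells had 842.1, 541.3 and 1081, against 917.6, 843.4 and 814.9 in untreated WT cells. KO and WT arrays overlapped in both treatments, since the LPS-treated WT replicate 2 was within the range of the KO arrays. The log2 response to LPS was 1.60 ± 0.28 in KO cells (adjusted p = 0.000726) and 0.83 ± 0.28 in WT cells (adjusted p = 0.0438). The call in WT cells was lost when any of 8 arrays was left out. Without an LPS-treated WT array it was lost for replicate 1 (0.82, adjusted p = 0.108) and replicate 2 (0.53, adjusted p = 0.169). Without an untreated WT array it was lost for each of the 3, at 0.80 to 0.88 (adjusted p up to 0.117). Without a KO array it was lost for LPS-treated replicates 1 and 3 and untreated replicate 1, at an unchanged 0.83 (adjusted p = 0.0566, 0.0549 and 0.0597). After LPS the KO minus WT difference was 0.64 ± 0.28 (adjusted p = 0.201), and 0.94 without the LPS-treated WT replicate 2 (adjusted p = 0.0374).

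**Figure D3:**
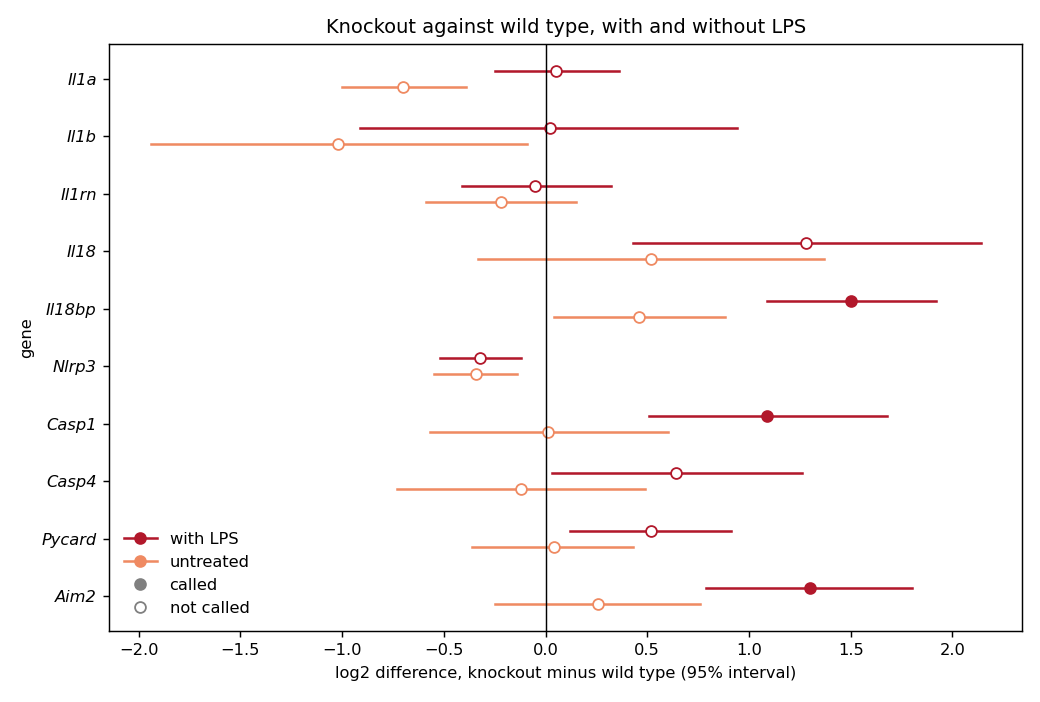
Log2 difference of KO from WT cells for each gene, with LPS (red, upper) and untreated (orange, lower), with 95% intervals; filled points passed the adjusted p threshold and open points did not. Il18bp (1.50), Aim2 (1.30) and Casp1 (1.09) passed it with LPS, and no gene passed it in untreated cells.

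The spread among the LPS-treated WT arrays was shared between genes. A list of 26 interferon-stimulated genes had a mean log2 level of 12.26, 12.30 and 12.47 on the LPS-treated KO arrays, against 11.40, 12.16 and 9.87 on the LPS-treated WT arrays. On the untreated KO arrays it was 9.12, 8.86 and 10.47, against 8.85, 8.78 and 8.20 on the untreated WT arrays. Replicate 3 stood apart in both of the groups of widest spread, low among the LPS-treated WT arrays and high among the untreated KO arrays. The order of the LPS-treated WT arrays in this list (replicate 3 lowest, then 1, then 2) was also the order of 8 of the 10 genes, all but Il18bp and Pycard. The order of the untreated KO arrays (2, 1, 3) was that of 6 of the 10. For the untreated WT and the LPS-treated KO arrays the list's order was that of 4 and 2 of the 10. The share of all genes in these orders was not counted, so the counts show nothing particular to the members. The list's median log2 difference between KO and WT cells was 0.93 with LPS and 0.73 without, against -0.01 and -0.03 over all genes, and 1 of its 26 genes was called, Irf1 with LPS (1.72 ± 0.27, adjusted p = 0.00303). With the LPS-treated WT replicate 3 and the untreated KO replicate 3 both left out, a choice made after seeing the data, Il18bp and Aim2 were still called between KO and WT cells after LPS, while Casp1 was not (0.74 ± 0.18, adjusted p = 0.0652). In the same fit 8 of the 10 genes were called in the WT response, where 27.4% of all genes were called. The part of the interferon-stimulated genes in the differences of Casp1, Aim2, Il18 and Casp4 was not tested.

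**Figure D4:**
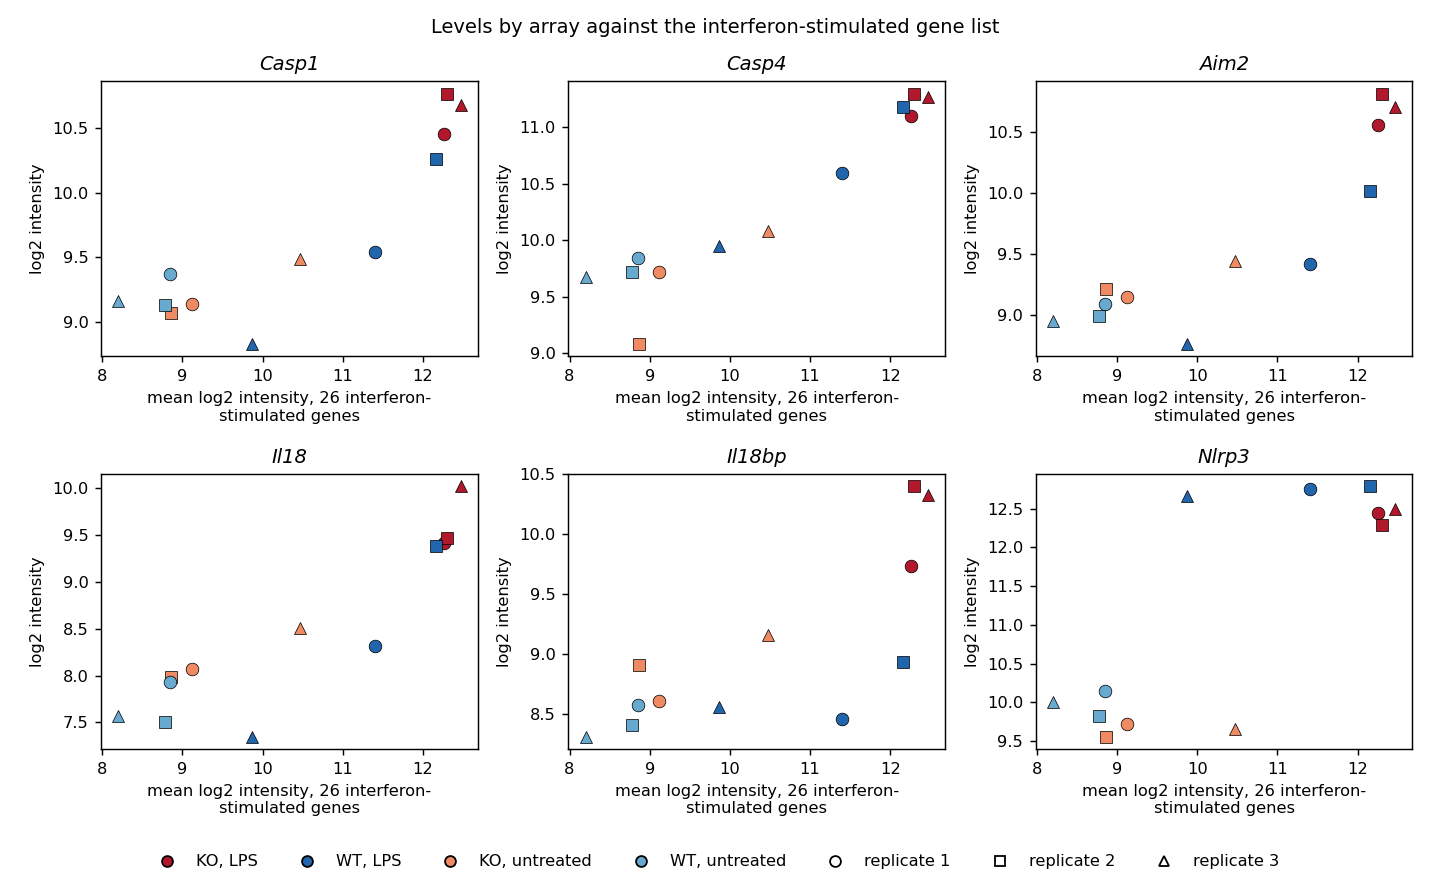
Log2 intensity of 6 of the genes on each array against the mean log2 intensity of 26 interferon-stimulated genes on that array, coloured by group, with a symbol per replicate. The LPS-treated WT replicates (dark blue) spread from 9.87 to 12.16 along the horizontal axis; Casp1, Casp4, Aim2 and Il18 climbed in the same order, while Il18bp was below the LPS-treated KO arrays on all 3 and Nlrp3 above them.

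The genes whose levels over the 12 arrays were most like those of each member were taken from the genes that ranged over at least 1 on the log2 scale, 4442 for each member. Since all 12 arrays are shared and LPS moves many genes, these values describe likeness and carry no test. For Nlrp3 they were Rab11fip1 (Pearson r = 0.997), the chemokine gene Ccl4 (0.997) and the cytokine gene Il6 (0.996). For Il1a they were Pim1 (0.989), the chemokine gene Cxcl2 (0.989) and Slc7a2 (0.988), and for Il1rn Inhba (0.989), Pde4b (0.988) and Cemip2 (0.987). Casp1 and Aim2 shared their nearest genes, the cytokine gene Il15 (0.997 and 0.987) and Setdb2 (0.99 and 0.987), followed by Aftph for Casp1 (0.988) and Batf2 for Aim2 (0.985). Il18 was nearest to Uba7 (0.987), Tpst1 (0.986) and the immunoproteasome gene Psmb9 (0.984), and Casp4 to Fnbp4 (0.988), the guanylate-binding protein gene Gbp7 (0.985) and Ccnyl1 (0.985). Pycard was nearest to Tgfbr2 (0.993), Nipsnap2 (0.992) and Tle5 (0.987). Likeness was lower for Il18bp, nearest to Gca (0.969), Cited2 (0.965) and Il23r (0.961), and for Il1b, nearest to Cd274 (0.947), Snx20 (0.936) and Ptgs2 (0.935).

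Of the other IL-1 family ligands, 6 of 12 listed genes were measured. LPS raised 3 of the 6 in KO cells and 3 in WT cells and lowered none. Il1f6, now called Il36a, had the largest rise, from low untreated signals: it was at 1370, 301.6 and 1919 in LPS-treated KO cells and at 844.8, 1068 and 1452 in LPS-treated WT cells, with overlapping groups. Its log2 response was 4.26 ± 0.51 in KO cells and 4.44 ± 0.51 in WT cells. Il1f9 (now Il36g) followed at 1.25 in KO cells and 1.23 in WT cells. Il33 was the gene called between KO and WT cells after LPS, at a low signal of 35.34, 37.50 and 41.80 in KO cells, against 46.31, 56.43 and 66.74 in WT cells (log2 difference -0.55 ± 0.12, adjusted p = 0.0188). That call was lost without the LPS-treated KO replicate 1 or the LPS-treated WT replicate 3, and over the 12 fits that leave out 1 array the log2 difference ran from -0.69 to -0.42 (adjusted p up to 0.0724). None of 8 measured receptor genes was called between KO and WT cells; LPS raised Il1rap, the shared accessory chain, by 0.69 in KO cells and 0.75 in WT cells and lowered Il1rl2, the IL-36 receptor chain, by a log2 difference of -0.82 in KO cells and -1.14 in WT cells.

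Of 14 measured genes that carry the signal of the IL-1 receptor, 2 were higher and 3 lower in KO than in WT cells after LPS, with a median log2 difference of -0.14 against -0.01 over all genes. Peli1, a ubiquitin ligase of the pathway, was at 4841, 5940 and 5617 in KO cells, against 3260, 3754 and 2565 in WT cells, a log2 difference of 0.79 ± 0.13 (adjusted p = 0.00447). Irak2, a kinase of the receptor complex, was higher by 0.49 ± 0.09 (adjusted p = 0.00641). Irak3, the member of that kinase family that restrains signalling, was at 3596, 2811 and 3039 in KO cells, against 6080, 5924 and 6747 in WT cells. The LPS-treated KO arrays overlapped the untreated KO arrays, which were at 2927, 3148 and 3020, and LPS raised it in WT cells by a log2 difference of 0.76 ± 0.10. The difference of its responses was called (-0.71 ± 0.14, adjusted p = 0.0403), but of the 12 fits that leave out 1 array it was called in 2, without the LPS-treated KO replicate 1 or the LPS-treated WT replicate 2, and it ran from -0.81 to -0.63 over them.

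Of 20 other measured sensor genes, 2 were higher and 1 was lower in KO than in WT cells after LPS. Nod1, a sensor of bacterial peptidoglycan, was at 876.9, 1914 and 1664 in KO cells, against 268.4, 619.9 and 183.0 in WT cells, without overlap. The log2 difference was 2.17 ± 0.38 (adjusted p = 0.00605), and it was called in all 12 fits that leave out 1 array. The calls of Naip6 (1.55, adjusted p = 0.0326) and Dpp9 (-0.27, adjusted p = 0.04) were lost in 6 and 8 of those fits, over which they ran from 1.20 to 1.97 and from -0.32 to -0.23. Naip6 belongs to a family of near-identical copies, so its probe set may also read its relatives. LPS raised 6 and lowered 7 of the 20 in KO cells, and raised 5 and lowered 6 in WT cells, with Nod2 up by a log2 difference of 1.83 in KO cells and 1.62 in WT cells.

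Of 21 measured partners and execution genes of the inflammasome, 1 was called between KO and WT cells after LPS, the pore-forming Gsdmd. It was at 754.1, 735.6 and 852.8 in KO cells, against 556.7, 683.0 and 505.4 in WT cells, a log2 difference of 0.43 ± 0.11 (adjusted p = 0.0314) that was lost without the KO replicates 1 or 3 or the WT replicates 1 or 3 of the LPS-treated cells (0.34 to 0.55 over all such fits). In KO cells LPS raised 6 of the 21 and lowered 13, and in WT cells it raised 4 and lowered 12, so that the list's median log2 response was -0.54 in KO cells and -0.44 in WT cells. The genes that rose most were the interferon-inducible Gbp5 (4.94 in KO and 3.95 in WT cells) and Gbp3 (3.49 and 2.81), also of a family of near copies. Of 18 measured inhibitors, Birc2 was higher (0.75 ± 0.13, adjusted p = 0.00486) and Serpinb9b lower (-1.02 ± 0.25, adjusted p = 0.0277) in KO than in WT cells after LPS, and the call of Serpinb9b was lost without the KO replicates 2 or 3 or the WT replicates 1 or 3 of the LPS-treated cells (-1.23 to -0.88 over all such fits). LPS raised 8 of the 18 in each genotype and lowered 3 in KO cells and 4 in WT cells. Of all genes, 21.9% rose and 23.8% fell in KO cells, and 9.53% rose and 18.5% fell in WT cells. The inhibitor that rose most was Tnfaip3, the product of which trims ubiquitin chains, at 2.59 in KO cells and 2.80 in WT cells. The median log2 difference between KO and WT cells after LPS was -0.07 for the ligands, 0.07 for the receptors, 0.15 for the sensors, 0.05 for the partners and execution genes and -0.03 for the inhibitors, against -0.01 over all genes. No gene of any of these lists was called between untreated KO and untreated WT cells.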

How the data were processed

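Gene expression in peritoneal macrophages was deposited as 1 linear intensity value per probe set. The submitters' processing notes name RMA and Affymetrix Expression Console 1.1 as the tools the authors used, without settings. RMA usually involves quantile normalization, which hides a shift of most transcripts. The intensities ran from 6.96 to 22642, with array medians of 110.4 to 118.7 and correlations within groups of 0.982 to 0.996. No sequencing depth applies, and the number of arrays limits the precision. The design had expected log2 values, so the deposited intensity values were first turned into log2, with no pseudocount. GEO's platform annotation gave 1 gene symbol to 21789 of the 35556 probe sets, several to 1621 and none to 12146. For the 999 genes with several probe sets the brightest was kept, which left 19938 genes. The Entrez identifiers of all 10 members matched RefSeq. No probe set coordinates are given, because no source used here names the build of that annotation.

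The model was fitted with limma 3.58.1 under R 4.3.3 (lmFit, then eBayes; two-sided) as 4 group means over the 12 arrays, which leaves 8 residual degrees of freedom. Benjamini-Hochberg adjustment ran over the 19938 genes. Fold values are ratios of geometric means. The titles number replicates 1 to 3 in every group. Deviations of same-numbered KO arrays from their group means correlated across genes at 0.322, 0.568 and 0.459, so LPS-treated and untreated KO arrays of 1 number were alike. Whether such arrays share an animal or a processing step is unknown, and arrays of different numbers were not compared. In WT cells the deviations correlated at -0.07, 0.143 and 0.359, and between KO and WT arrays, over both treatments, at -0.255 to 0.087. There the numbers marked no steady likeness. Alternatives were other scalings, a pseudocount, a filter on dim genes, trended robust variances, array weights, replicate blocks, other handling of probe sets, the 6 arrays compared alone, stricter thresholds, and leaving out each array. Of 15 gene lists, up to 4 called genes with the largest difference per contrast could be named, with all members, Nfkbiz and the 3 genes most like each member, leaving aside olfactory and vomeronasal receptors, small RNAs and predicted genes. Members and lists were chosen with earlier results of these data known.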

Additional observations from a re-analysis of the deposited data

How the results depend on the processing

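The 10 genes in 5 comparisons gave 50 results. Of these, 33 kept their side of the threshold in every alternative, and no called result changed sign. Of 18 called results 14 were called throughout, and of 32 others 19 were called nowhere. After LPS the number of the 10 genes called between KO and WT cells was 3, where 8.14% of all genes were called. It became 5 with dim genes left out (17.5% of all genes), 6 with array weights (16.5%) and 1 with the 6 arrays compared alone (2.47%). With each array left out it was 2 to 5, where the share of all genes was 3.57% to 10.8%. In untreated cells the number was 0 (0.0752% of all genes), and 1 with array weights (0.231%). It was also 1 without replicate 3 of both the LPS-treated WT and the untreated KO cells (0.0502%). That alternative was added after seeing the data, like the replicate block within genotype. With each array left out the number was 0 to 1 (0.0301% to 0.115% of all genes). The fit without the untreated KO replicate 2 was one of those that leave out each array. In the WT response the number was 5 (28.1% of all genes), 8 with array weights (50.7%) and 8 without both replicates 3 (27.4%). With each array left out it was 4 to 8 (22% to 29.8%). The KO response stayed at 10 (45.7% of all genes in the main fit) except for 9 at an adjusted p under 0.01 (29.8%), where Il18 was lost. For the difference of responses the number was 0 (0.747% of all genes), 2 with array weights (3.35%) and 1 with the replicate block within genotype (1.48%). With each array left out it was 0 to 2 (0.276% to 1.83%). With the replicate number as a block in all groups, Casp4 in WT cells was no longer called (0.83, adjusted p = 0.0693) and Nlrp3 after LPS was (-0.32, adjusted p = 0.0471), and no other call of the 10 genes changed. The causes of these changes were not tested. Fits that leave some arrays out also rest on fewer arrays, and the part of that number was not tested either. Centring each array on its 75th percentile moved the median response of all genes to 0.28 in KO cells and 0.19 in WT cells, against 0.07 and 0.04, and the share of genes called to 72.2% and 51.1%, against 45.7% and 28.1%. The share of higher genes among those called became 76.6% in KO cells, 72.8% in WT cells and 52.6% between KO and WT cells after LPS, against 47.9%, 34.0% and 40.2%. No call of the 10 genes changed with it. Dim genes such as Il33 lie near the bottom of the intensity range, where fold changes are understated.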
